A study of Mus musculus with 2 samples.

Results

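The matrix metalloproteinases (Mmp genes), the ADAMTS proteases (Adamts genes), the ADAMTS-like proteins (Adamtsl genes) and 3 tissue inhibitors of metalloproteinases (Timp2, Timp3 and Timp4) were followed through the cell classes of the aged mouse hippocampus. The genes were chosen by symbol, and 48 of the 19059 genes in the count tables matched: 22 Mmp, 18 Adamts, 5 Adamtsl and 3 Timp genes. Of these, 39 had 20 or more UMIs (unique molecular identifiers, each standing for 1 counted molecule) in at least 1 cell class of a library, and they comprised 14 Mmp, 17 Adamts, all 5 Adamtsl and all 3 Timp genes. The other 9 were at or near 0. Mmp1b, Mmp7, Mmp10 and Mmp20 had 0 UMIs over both libraries, Mmp27 had 1, Mmp3 had 9, Mmp8 had 20, Mmp13 had 39 and Adamts7 had 68 UMIs spread over several classes.

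The study asked what dietary tomatidine, a steroidal plant compound, changes in aged mice. Both libraries came from flash-frozen hippocampi of C57BL/6 mice, which were dissociated, fixed and counted with the probe-based Chromium Fixed RNA Profiling assay. The control library was a pool of 4 mice on standard chow, and the tomatidine library was a pool of 4 mice whose chow held 0.05% tomatidine. Both groups were on these diets for 3 months from an age of 21 months. The sex of the pooled mice is not given by the labels. With 1 pooled library per group, no difference between them has a replicate check and no test was run. Intervals are 95% intervals and cover counting error only, not differences between mice. A difference in how the libraries were made would look the same as a difference between the diets.

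Matrix metalloproteinases are zinc-dependent enzymes that are made as inactive precursors and cut collagens, laminins, proteoglycans and many cell surface proteins. Most are secreted, while the membrane-type members stay anchored to the cell surface, where Mmp14 together with Timp2 activates the precursor of Mmp2. ADAMTS proteases are secreted, and several of them (Adamts1, Adamts4, Adamts5, Adamts8, Adamts9, Adamts15 and Adamts20) are known to cut the lecticans, the proteoglycans that fill the space between brain cells and build perineuronal nets. ADAMTS-like proteins have the ancillary domains of that family without its catalytic domain, and some of them bind fibrillin microfibrils. The tissue inhibitors block the active site of metalloproteinases, and Timp3 is also bound to the matrix and acts on ADAM and ADAMTS enzymes.

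The 9 Mmp genes that lie next to each other on chromosome 9 gave the sharpest contrast within the family. They span 427 kb (chr9:7272514-7699585, GRCm38/mm10) and include the collagenases, stromelysins and matrilysin, yet only 1 of them, Mmp12 (macrophage metalloelastase), was detected, and no other had more than 39 UMIs over both libraries. Promoter windows of 250 bases upstream of annotated starts were available from RefSeq for 33 of the 48 genes. Windows at 4 starts of the cluster are shown here because Mmp12 was detected, mainly in border macrophage-like cells, while its neighbours Mmp13 and Mmp3 were close to 0. Letters in capitals mark matches to TGANTCA, the form of site that AP-1 factors bind, in which N is any base. The motif reads the same on both strands and was searched alone, so no overlap with another motif arises. All windows are on the plus strand and are written from 5′ to 3′.
Mmp12, first start, chr9:7344147-7344396: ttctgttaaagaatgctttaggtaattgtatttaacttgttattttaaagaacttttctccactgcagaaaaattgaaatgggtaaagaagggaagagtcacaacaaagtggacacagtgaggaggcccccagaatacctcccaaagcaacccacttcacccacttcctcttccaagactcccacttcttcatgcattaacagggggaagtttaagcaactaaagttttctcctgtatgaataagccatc
Mmp12, second start, chr9:7347124-7347373: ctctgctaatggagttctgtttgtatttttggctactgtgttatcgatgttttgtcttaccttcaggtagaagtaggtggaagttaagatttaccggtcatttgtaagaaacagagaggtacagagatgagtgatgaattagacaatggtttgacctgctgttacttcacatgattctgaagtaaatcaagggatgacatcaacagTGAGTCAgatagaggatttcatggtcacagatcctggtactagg
Mmp13, chr9:7272264-7272513: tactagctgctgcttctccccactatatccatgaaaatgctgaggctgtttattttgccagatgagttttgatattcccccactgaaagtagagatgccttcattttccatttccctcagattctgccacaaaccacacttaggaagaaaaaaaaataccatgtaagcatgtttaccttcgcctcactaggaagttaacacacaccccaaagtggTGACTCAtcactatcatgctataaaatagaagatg
Mmp3, chr9:7445572-7445821: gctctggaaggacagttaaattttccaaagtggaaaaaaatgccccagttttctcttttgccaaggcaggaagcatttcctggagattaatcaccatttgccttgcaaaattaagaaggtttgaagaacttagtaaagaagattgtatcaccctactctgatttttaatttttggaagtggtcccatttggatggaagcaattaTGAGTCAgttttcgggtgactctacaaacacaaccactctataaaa
The match began 44 bases before the second start of Mmp12, 35 before that of Mmp13 and 46 before that of Mmp3, and the window of the first Mmp12 start held none. The motif was present in a window of 7 of the 9 cluster genes and in 0 of the 24 other genes with a window, against 6.75% of all 32851 windows in the table (2217 windows). A match describes the letters of a window and does not show that a factor binds there. Mmp12 and 6 of its 8 undetected neighbours held it.

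The filtered tables held 15912 control and 15185 tomatidine cells, of which 15115 and 14503 were kept, with a median of 7077 and 7408 UMIs per cell. Deposited totals were 279525565 and 259059908 UMIs. Clusters were named from marker genes that included no member of the families described here, and a name such as "OPC-like" (oligodendrocyte precursor) means that those markers led the cluster. Neurons of the dentate gyrus, CA1 and CA3 were present, as a hippocampal dissection holds, together with subcortical neuron-like, deep-layer excitatory-like and choroid plexus-like cells from neighbouring tissue. The makeup of the libraries differed: choroid plexus-like cells numbered 346 in control and 32 in tomatidine, and subcortical neuron-like cells 459 and 900. The sum of 20 choroid plexus markers was lower in the tomatidine library in each of the 13 classes compared below, with 12158 and 325 CPM in mural-like cells and 4097 and 3268 CPM in oligodendrocyte-like cells. The 2 libraries shared 262 cell barcodes among the kept cells. A level is given in CPM, in which a gene's UMIs are scaled to a common total of UMIs in every class, and it compares classes within a gene but not genes with each other, since each gene has its own probes.

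Most of the 39 genes had one class in which they were highest, and it was the same class in both libraries for 31 of them: 12 Mmp, 12 Adamts, 4 Adamtsl and 3 Timp genes. Fibroblast-like cells led for 11 genes (Adamts2, Adamts10, Adamts12, Adamts15, Adamtsl3, Adamtsl5, Mmp11, Mmp14, Mmp19, Mmp23 and Timp3), OPC-like cells for 4 (Adamts6, Mmp2, Mmp15 and Mmp16) and dentate granule-like cells for 4 (Adamts3, Adamts17, Adamts20 and Mmp24). Oligodendrocyte-like cells led for 3 (Adamts4, Adamtsl1 and Adamtsl4), and border macrophage-like (Mmp9 and Mmp12), endothelial-like (Mmp25 and Mmp28) and subcortical neuron-like cells (Adamts19 and Timp2) for 2 each. Timp4 was highest in astrocyte-like cells, Adamts16 in microglia-like cells and Adamts14 in mural-like cells. The leading class differed between the libraries for Adamts1, Adamts5, Adamts8, Adamts9, Adamts18, Adamtsl2, Mmp17 and Mmp21. Over the 15 classes, the rank correlation (Spearman) of a gene's levels between the libraries had a median of 0.80 and ranged from 0.11 for Adamts19 to 0.98 for Mmp14 and Timp2. These correlations describe 15 points each, which share library and depth.

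**Figure D1:**
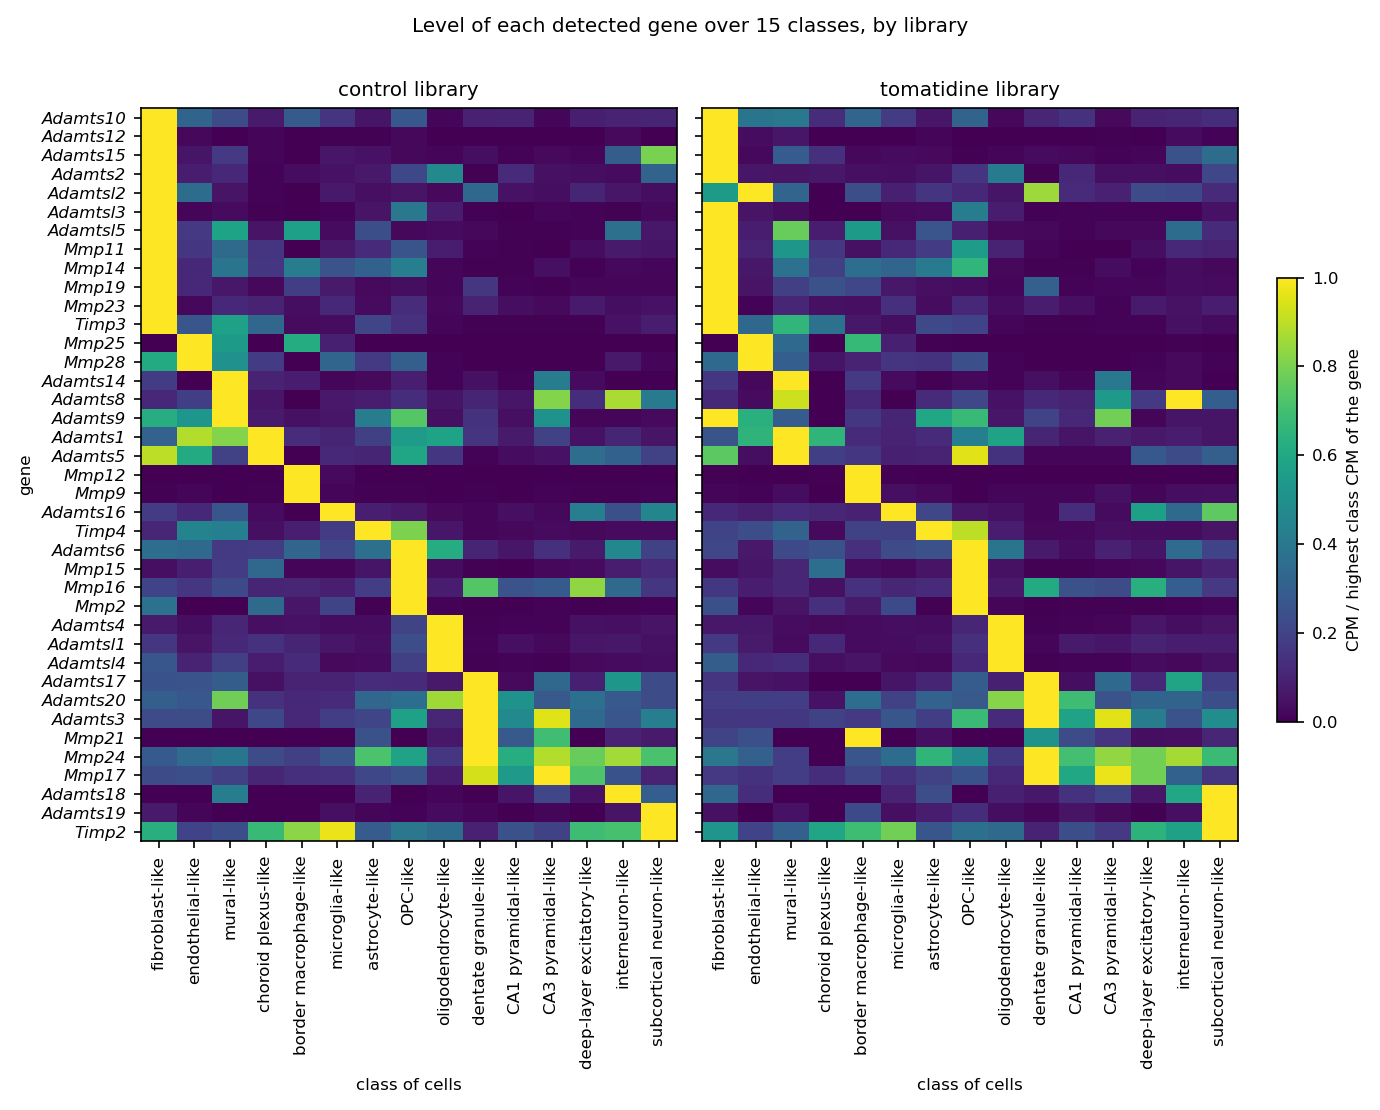
Level of each of the 39 detected genes (rows) over 15 classes of cells (columns) in the control and the tomatidine library, as CPM divided by the highest class CPM of that gene in that library. A bright block of fibroblast-like genes, a block of OPC-like and oligodendrocyte-like genes and a block of neuronal genes recur in both libraries, and 31 of 39 rows have their brightest cell in the same column.

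Among the metalloproteinases outside the membrane-type group, the gelatinase Mmp2 was highest in OPC-like cells, at 128 CPM (387 UMIs) in control and 135 CPM (292 UMIs) in tomatidine. Fibroblast-like cells followed at 47.8 and 33.2 CPM, and oligodendrocyte-like cells, the mature stage of the same lineage, held 1.43 and 2.59 CPM. The other gelatinase, Mmp9 (chr2:164940780-164955850, plus strand), and the elastase Mmp12 had their highest levels in border macrophage-like cells. Most Mmp9 UMIs were nevertheless read outside that class. In border macrophage-like cells Mmp9 measured 183 CPM (interval 151 to 219) in control and 54.0 CPM (35.6 to 78.6) in tomatidine, and Mmp12 measured 199 CPM (165 to 236) and 384 CPM (332 to 443). The next highest class reached 3.28 CPM for Mmp9 in control and 5.01 CPM for Mmp12, both far below the leading level. Mmp11 (stromelysin-3), Mmp19 and Mmp23 were highest in fibroblast-like cells, at 56.1, 51.2 and 41.5 CPM in control and 44.2, 28.3 and 50.4 CPM in tomatidine. Mmp28 (epilysin) was highest in endothelial-like cells at 57.7 and 84.8 CPM, where 33.2% (62 of 187) and 36.0% (95 of 264) of cells had a UMI. In oligodendrocyte-like cells, at a median depth of 5331 and 4904 UMIs against 6156 and 4234 in endothelial-like cells, those shares were 0.327% and 0.506%.

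The membrane-type enzymes divided among the neural and the stromal classes. Mmp15 stood out in OPC-like cells at 566 CPM (1708 UMIs) in control and 689 CPM (1488 UMIs) in tomatidine, where 80.4% and 81.8% of cells had a UMI, compared with 3.46% and 5.26% of microglia-like cells. The next class, choroid plexus-like, held 190 and 250 CPM. Mmp16 was also highest in OPC-like cells, at 162 and 208 CPM, but was shared with deep-layer excitatory-like (135 and 132 CPM) and dentate granule-like neurons (118 and 127 CPM). Mmp14, the activator of the Mmp2 precursor, was highest in fibroblast-like cells at 218 and 161 CPM and came next in OPC-like cells at 93.1 and 106 CPM, so that Mmp2 and Mmp14 transcripts were both read in these classes.

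Mmp17 and Mmp24 were the neuronal members. Mmp17, which is held in the membrane by a lipid anchor, measured 421 CPM (interval 406 to 436) in CA3 pyramidal-like and 394 CPM (389 to 400) in dentate granule-like cells of the control library. In the tomatidine library the corresponding values were 372 CPM (357 to 387) and 382 CPM (376 to 389), with overlapping intervals, so the order of these neurons was not fixed. Deep-layer excitatory-like cells came next at 305 and 301 CPM and CA1 pyramidal-like cells at 226 and 228 CPM. Mmp24 was flatter: 41.6 and 44.5 CPM in dentate granule-like, 36.7 and 37.3 CPM in CA3 pyramidal-like and 35.8 and 38.5 CPM in interneuron-like cells. The other lipid-anchored enzyme, Mmp25, reached 17.8 and 20.9 CPM in endothelial-like cells from 38 and 43 UMIs.

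Of the ADAMTS enzymes that cut lecticans, Adamts4 (chr1:171250421-171260637, plus strand) was by far highest in oligodendrocyte-like cells. It measured 571 CPM (11164 UMIs) in control and 489 CPM (7373 UMIs) in tomatidine, against 117 and 53.2 CPM in OPC-like cells, the next class. A UMI of Adamts4 was found in 86.2% and 82.3% of oligodendrocyte-like cells and in 8.54% and 7.81% of astrocyte-like cells. With each cell thinned to 1500 UMIs, the oligodendrocyte-like shares were 54.0% and 50.1%. Adamts20 was divided between dentate granule-like (41.3 and 49.7 CPM) and oligodendrocyte-like cells (35.3 and 40.6 CPM). Adamts15 was highest in fibroblast-like cells at 58.1 and 86.8 CPM. Adamts1 had no single home: choroid plexus-like cells led in control at 163 CPM and mural-like cells in tomatidine at 169 CPM, with endothelial-like cells at 144 and 110 CPM and oligodendrocyte-like cells at 94.5 and 97.5 CPM. Adamts5 and Adamts8 stayed at or below 17.8 CPM in each class of both libraries.

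The procollagen N-proteinases Adamts2, Adamts3 and Adamts14 remove the amino-terminal propeptide of fibrillar procollagens. Adamts2 was highest in fibroblast-like cells at 140 and 150 CPM. Adamts3, which is also known to cut reelin, was instead a neuronal gene here, at 83.5 and 95.3 CPM in dentate granule-like and 79.4 and 90.8 CPM in CA3 pyramidal-like cells. The intervals of these 2 classes overlapped in both libraries. Adamts14 reached 19.4 and 23.4 CPM in mural-like cells from 12 and 26 UMIs. Among the remaining ADAMTS genes, Adamts10, whose product binds fibrillin, was highest in fibroblast-like cells at 289 and 296 CPM, and Adamts12 was read there at 44.3 and 45.5 CPM and at no more than 2.70 CPM in any other class. Adamts19 was highest in subcortical neuron-like cells at 29.5 and 17.9 CPM, Adamts17 in dentate granule-like cells at 16.5 and 19.1 CPM, Adamts16 in microglia-like cells at 24.1 and 22.2 CPM and Adamts6 in OPC-like cells at 19.2 and 28.7 CPM.

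Adamtsl1 and Adamtsl4 were highest in oligodendrocyte-like cells together with Adamts4, Adamtsl1 at 309 and 275 CPM and Adamtsl4 at 280 and 297 CPM. The fibrillin-binding Adamtsl4 had a second site in fibroblast-like cells at 75.5 and 87.3 CPM. Adamtsl3 and Adamtsl5 were fibroblast-like genes, at 54.7 and 57.4 CPM and at 61.6 and 58.6 CPM.

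The 3 inhibitors had distinct distributions. Timp3 (chr10:86300372-86349506, inside Syn3 on the opposite strand) was highest in fibroblast-like cells at 1691 and 1665 CPM, followed by mural-like cells at 969 and 1094 CPM and endothelial-like cells at 456 and 559 CPM. Timp4 (chr6:115241892-115252205, inside Syn2 on the opposite strand) was highest in astrocyte-like cells at 260 and 276 CPM and next in OPC-like cells at 209 and 249 CPM. In the tomatidine library the intervals of these 2 classes overlapped. Timp2 was present in every class. It was highest in subcortical neuron-like cells at 796 and 910 CPM and in microglia-like cells at 772 and 716 CPM, and lowest in dentate granule-like cells at 72.2 and 86.7 CPM. The neurons that led for Mmp24, Adamts3, Adamts17 and Adamts20 thus had the lowest Timp2 level of the 15 classes.

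To compare the libraries, a ratio of CPM (tomatidine over control) was taken for each gene and class with at least 50 UMIs over both libraries, and a ratio past 1.5-fold was called. This was done in 13 classes and left out choroid plexus-like and subcortical neuron-like cells, whose numbers or clusters differed too much between the libraries. Of 260 pairs of gene and class, 23 were past 1.5-fold higher with tomatidine, 24 past 1.5-fold lower and 213 within 1.5-fold. With at least 100 UMIs, 13 of 203 pairs were higher and 14 lower. The share of all genes past the same fold is given beside each class below, and the ratios in every class rest on the same pair of libraries.

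**Figure D2:**
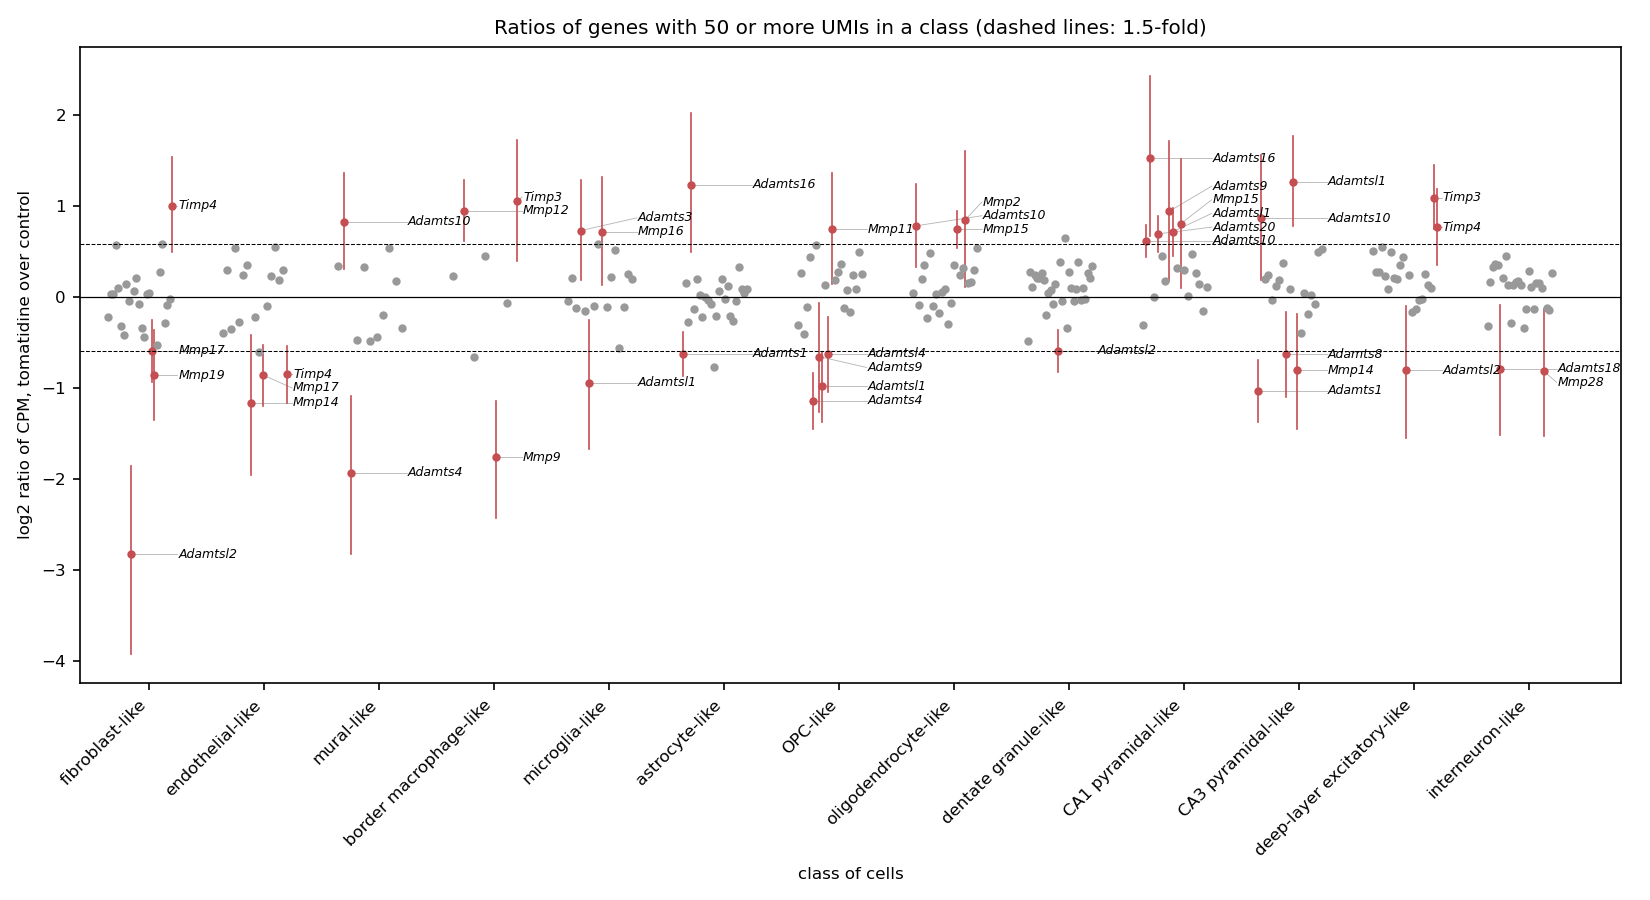
Log2 ratio of CPM, tomatidine over control, for each gene with 50 or more UMIs in a class of cells (260 points in 13 classes). Red points are past 1.5-fold (dashed lines) with a counting interval that leaves out 0, drawn as a bar, and grey points beyond the dashed lines have an interval that includes 0. Adamtsl2 in fibroblast-like cells at -2.82, Adamts4 in mural-like cells at -1.93 and Mmp9 in border macrophage-like cells at -1.76 are the lowest, and Adamts16 in CA1 pyramidal-like cells at 1.53 is the highest.

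The border macrophage-like class, 153 control and 129 tomatidine cells, gave opposite differences for its 2 leading proteases. Mmp9 was lower with tomatidine, with 116 and 27 UMIs and a log2 ratio of -1.76 (interval -2.42 to -1.14). Over all kept cells Mmp9 had 329 UMIs in control and 315 in tomatidine, and in the other class tested its log2 ratio was -0.02. Mmp12 was higher, with 126 and 192 UMIs and a log2 ratio of 0.95 (0.62 to 1.29). Timp3 was also higher, at 52.0 and 108 CPM (33 and 54 UMIs, log2 ratio 1.06), and Mmp14 was lower at 91.4 and 58.0 CPM with an interval of -1.35 to 0.01 that included 0. In all, 2 of 7 tested genes were higher and 2 lower, where 8.71% and 6.44% of all genes in this class were, and the median log2 ratio was 0.23 against 0.04 for all genes.

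Few cells carried these transcripts. Mmp9 was found in 18 of 153 control cells (11.8%, interval 7.12 to 18.0) and 11 of 129 tomatidine cells (8.53%, 4.33 to 14.7), and 10 control cells but 0 tomatidine cells had 5 or more UMIs. The highest cell held 15 and 4 Mmp9 UMIs. Mmp12 was found in 10 control and 7 tomatidine cells, and its highest cell held 39 and 79 UMIs, which is 31.0% and 41.1% of the class sum. Mmp9 and Mmp12 were read together in 1 control cell and 0 tomatidine cells. In microglia-like cells, whose median depth was 3093 and 2847 UMIs against 3029 and 2893, a Mmp9 UMI was found in 0.806% and 0.385% of cells and a Mmp12 UMI in 0.922% and 0.642%.

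**Figure D3:**
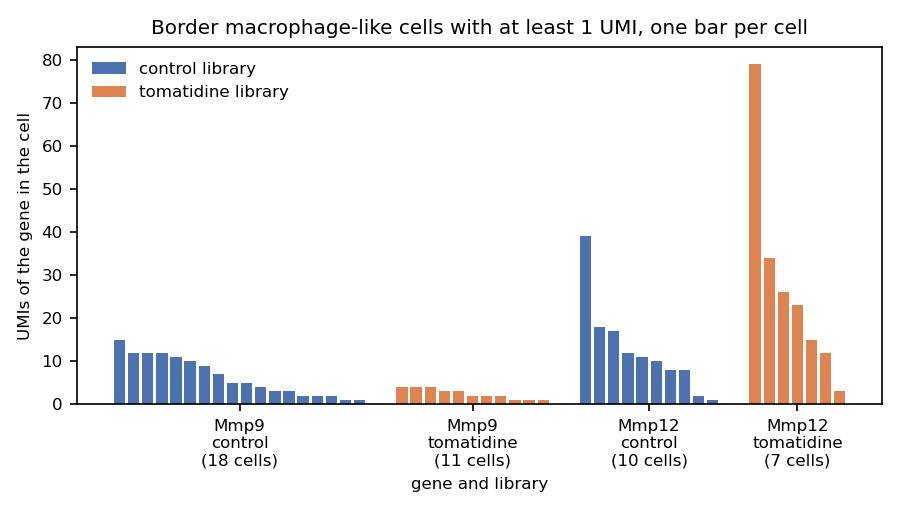
UMIs of Mmp9 and Mmp12 in each border macrophage-like cell with at least 1 UMI of the gene, one bar per cell in falling order, by library. Mmp9 reaches 15 UMIs in a control cell and 4 in a tomatidine cell, and for Mmp12 a single tomatidine cell with 79 UMIs holds 41.1% of that library's sum.

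The cells of this class differed between the libraries in other ways as well. Neutrophil markers, a list written after the data had been seen, summed to 655 UMIs in 10 control cells and 10 UMIs in 3 tomatidine cells, while Camp, Elane and Mpo were at 0 in both. Of the 116 control Mmp9 UMIs, 36 were in the 5 cells with 5 or more neutrophil marker UMIs. In the control cells with 5 or more Mmp9 UMIs, border macrophage markers had a median of 41.5 UMIs per cell, compared with 3 over the whole class. In the cells with 5 or more Mmp12 UMIs that median was 3 in control and 2.5 in tomatidine, where the whole class had 11, so the border macrophage markers of the Mmp12-bearing cells were few. Microglia markers summed to 25357 and 20517 CPM in this class, against 54894 and 50451 CPM in microglia-like cells. Mmp8, a collagenase stored by neutrophils, had 10 and 2 UMIs there, in 4 and 1 cells, of which 3 and 0 also had Mmp9. Border macrophage markers summed to 4762 and 6507 CPM, with all 10 markers higher in the tomatidine library, astrocyte markers to 2337 and 3938 CPM and choroid plexus markers to 1191 and 332 CPM. The part of these cells in the Mmp9, Mmp12 and Timp3 differences was not tested. Without the cell with the most UMIs of the gene in each library, the calls for Mmp9, Mmp12 and Timp3 stood. The mean over cells of the per-cell CPM gave Mmp12 a log2 ratio of 0.57, within 1.5-fold.

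In the oligodendrocyte lineage the mature and the precursor cells differed in their ratios. Adamts4, Adamtsl1 and Adamtsl4 were within 1.5-fold in oligodendrocyte-like cells, with log2 ratios of -0.22, -0.17 and 0.09. In OPC-like cells all 3 were past 1.5-fold lower. Adamts4 measured 117 CPM in control and 53.2 CPM in tomatidine (353 and 115 UMIs, log2 ratio -1.14, interval -1.45 to -0.83), Adamtsl1 72.9 and 37.0 CPM (220 and 80 UMIs, -0.98) and Adamtsl4 52.7 and 34.3 CPM (159 and 74 UMIs, -0.62). Adamts9 was also lower there at 26.2 and 16.7 CPM, and Mmp11 was higher at 14.6 and 24.5 CPM. In total, 1 of 22 tested genes was higher and 4 lower in OPC-like cells, where 2.66% and 3.31% of all genes were, with a median log2 ratio of 0.11 against 0.03 for all genes. The genes for which these cells led were within 1.5-fold: Mmp15 with a log2 ratio of 0.28, Mmp16 with 0.36, Mmp2 with 0.08 and Adamts6 with 0.58.

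Oligodendrocyte transcripts moved in the same direction in OPC-like cells. The 21 oligodendrocyte markers summed to 15770 CPM in control and 9261 CPM in tomatidine, and all 21 were lower. Per 1000 oligodendrocyte marker UMIs, Adamts4 had 7.42 UMIs (interval 6.67 to 8.24) in control and 5.75 (4.75 to 6.90) in tomatidine OPC-like cells. Oligodendrocyte-like cells had 8.38 (8.23 to 8.54) and 7.74 (7.56 to 7.91), so that the OPC-like interval lay below the oligodendrocyte-like one in tomatidine and reached into it in control. The corresponding Adamtsl1 values were 4.62 and 3.999 against 4.54 and 4.34. Adamtsl4 went the other way per marker, with 3.34 (2.84 to 3.90) in control and 3.70 (2.90 to 4.64) in tomatidine against 4.11 (4.002 to 4.22) and 4.70 (4.57 to 4.84). With oligodendrocyte RNA subtracted in proportion to these markers, an alternative chosen after seeing the data, no ratio of the 3 genes could be formed in OPC-like cells. When OPC-like cells were defined by a marker gate per cell instead of by cluster, the Adamts4 ratio was 0.06 and the Adamtsl1 ratio 0.63, so that the direction turned. At a clustering resolution of 1.5 the Adamtsl1 ratio was 0.25.

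**Figure D4:**
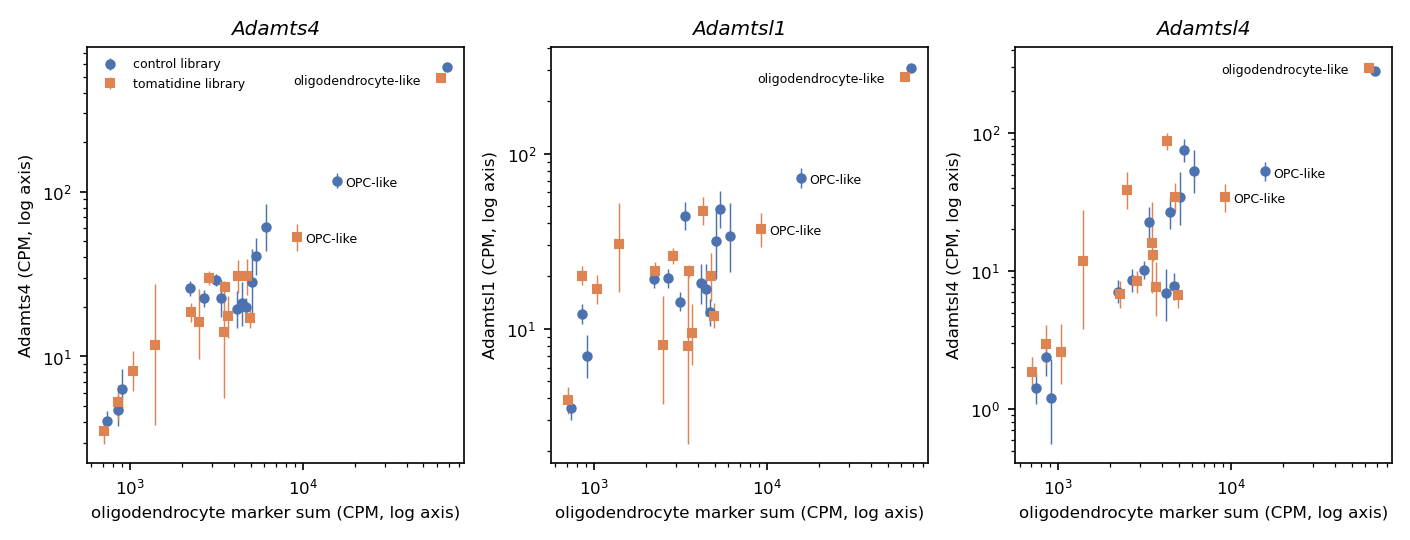
CPM of Adamts4, Adamtsl1 and Adamtsl4 (vertical, log axis) against the summed CPM of oligodendrocyte markers (horizontal, log axis) in 15 classes of cells, with 1 point per class and library and bars for the Poisson interval. Oligodendrocyte-like cells lie at the upper right, and the OPC-like point of the tomatidine library (53.2 CPM of Adamts4 at a marker sum of 9261 CPM) lies below and left of that of the control library (117 CPM at 15770 CPM).

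Oligodendrocyte-like cells themselves had 3 of 23 tested genes past 1.5-fold higher and 0 lower, where 3.8% and 0.731% of all genes were. Mmp15 was the best measured of them, at 18.1 CPM (354 UMIs) in control and 30.4 CPM (458 UMIs) in tomatidine, a log2 ratio of 0.75. Adamts10 (3.73 and 6.43 CPM) and Mmp2 (1.43 and 2.59 CPM) were the others, both at low levels. The median log2 ratio was 0.17 against 0.06 for all genes.

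Among the vascular classes, endothelial-like cells (187 and 264) had 0 of 17 tested genes higher and 4 lower, where 4.01% and 4.27% of all genes were, and a median log2 ratio of -0.09 against 0.01 for all genes. Timp4 was lower at 117 and 65.3 CPM (250 and 134 UMIs, log2 ratio -0.85, interval -1.16 to -0.54), Mmp17 at 101 and 56.0 CPM (216 and 115 UMIs, -0.86) and Mmp14 at 23.9 and 10.7 CPM (51 and 22 UMIs, -1.16). The fourth, Mmp16, had an interval that included 0. The sum of 22 astrocyte markers was lower in the same cells, at 11209 and 7684 CPM with all 22 lower, and the neuronal marker Slc17a7 was lower too, at 611 and 389 CPM. Their part in the Timp4 and Mmp17 ratios was not tested. Timp4 came within 1.5-fold under 3 of 13 alternatives. The Mmp14 and Mmp17 directions turned under other class definitions, Mmp14 to 0.10 and Mmp17 to 0.34 under a marker gate. Mmp28, the leading endothelial-like member, was higher without passing 1.5-fold (log2 ratio 0.55, interval 0.21 to 0.90), and Timp3 had a log2 ratio of 0.30.

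Mural-like cells were few, at 66 and 103, and had 1 of 11 tested genes higher and 1 lower, where 8.02% and 6.37% of all genes were, and a median log2 ratio of -0.20 against 0.01. Adamts10 was higher at 66.4 and 118 CPM (41 and 131 UMIs, log2 ratio 0.83). Adamts4 was lower at 61.6 and 16.2 CPM (38 and 18 UMIs, log2 ratio -1.93, interval -2.82 to -1.08), and the sum of oligodendrocyte markers, with all 21 lower, went from 6111 to 2517 CPM. Per 1000 of those marker UMIs, Adamts4 had 10.1 (7.13 to 13.8) and 6.44 (3.81 to 10.2) UMIs, with overlapping intervals. With oligodendrocyte RNA subtracted in proportion to these markers, no Adamts4 ratio could be formed in mural-like cells. The mix of cells within the class also differed, with 16 and 43 cells in one of its 3 parts. These parts came from a second split of the clusters named endothelial. Endothelial transcripts were plentiful in this class, with marker sums of 8989 and 11108 CPM beside 18414 and 18897 CPM for mural markers. In its part of 12 and 22 cells the endothelial sum (10511 and 10907 CPM) exceeded the mural one (9129 and 8586 CPM). The part of these transcripts in the ratios was not tested.

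Fibroblast-like cells (283 and 530) kept the levels of most of the 11 genes for which they led. Timp3, Adamts2, Adamts10, Adamts12, Adamtsl3 and Adamtsl5 had log2 ratios between -0.07 and 0.10. Mmp14 was lower within 1.5-fold at -0.43 (interval -0.65 to -0.22) and Adamts15 higher at 0.58 (0.21 to 0.96). Mmp19 was past 1.5-fold lower at 51.2 and 28.3 CPM (74 and 69 UMIs, log2 ratio -0.86). A UMI of Mmp19 was found in 18.4% (52 of 283) and 9.81% (52 of 530) of these cells, and in 0.491% and 0.295% of oligodendrocyte-like cells. Timp4 was higher at 28.4 and 56.9 CPM (41 and 139 UMIs, log2 ratio 1.005), and 1 of 13 alternatives brought it within 1.5-fold. Astrocyte markers summed to 6499 and 7195 CPM there. Mmp17 was lower at 95.5 and 63.5 CPM, a call lost under 6 of 13 alternatives. Across the class, 1 of 26 tested genes was higher and 3 lower, where 3.12% and 3.96% of all genes were, and both medians were near 0 (-0.03 for these genes and -0.04 for all).

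Adamtsl2 gave the lowest ratio of any pair. The gene lies at chr2:27079379-27108981 on the plus strand, and its product binds fibrillin. In fibroblast-like cells it measured 31.8 CPM from 46 UMIs in 18 cells of the control library and 4.51 CPM from 11 UMIs in 9 cells of the tomatidine library, a log2 ratio of -2.82 (interval -3.92 to -1.85). The highest cell held 8 and 2 UMIs. Over the alternatives run for it the ratio ranged from -2.98 to -2.37. The gene was also lower in the other 2 classes with enough UMIs, at 10.6 and 7.06 CPM in dentate granule-like cells (478 and 236 UMIs, log2 ratio -0.59, interval -0.82 to -0.36) and at 3.29 and 1.88 CPM in deep-layer excitatory-like cells (51 and 26 UMIs, -0.80). The dentate granule-like ratio lay at the edge of 1.5-fold and came within it under 3 of 12 alternatives. Over all kept cells Adamtsl2 had 884 UMIs in control and 488 in tomatidine.

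Adamts10 was the converse case, with a ratio above 0 in all 13 classes in which it was tested. Its log2 ratios ranged from 0.03 in fibroblast-like cells, where it was highest, to 0.87 in CA3 pyramidal-like cells, and 7 of the 13 intervals lay above 0. It passed 1.5-fold in mural-like, oligodendrocyte-like, CA3 pyramidal-like (31 and 50 UMIs) and CA1 pyramidal-like cells (502 and 535 UMIs, 27.2 and 41.8 CPM). The call came within 1.5-fold under 5 of 13 alternatives in oligodendrocyte-like cells. That happened under 2 of 12 in CA1 pyramidal-like, 1 of 12 in CA3 pyramidal-like and 0 of 13 in mural-like cells. The dentate granule-like value was 26.4 and 31.9 CPM. Since these 13 ratios come from 1 pair of libraries, they are not 13 independent observations.

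Microglia-like cells had 3 of 16 tested genes higher and 1 lower, where 3.39% and 1.39% of all genes were, with a median log2 ratio of 0.08 against 0.03. Adamts3 (15.3 and 25.5 CPM), Mmp16 (13.5 and 22.2 CPM) and Mmp15 were higher, the last with an interval that included 0, and Adamtsl1 was lower (18.2 and 9.47 CPM). The neuronal marker Slc17a7 measured 466 and 479 CPM in these cells. Per 1000 oligodendrocyte marker UMIs, Adamtsl1 had 4.33 and 2.58 UMIs, against 4.54 and 4.34 in oligodendrocyte-like cells. The part of such transcripts in these ratios was not tested. Adamts3 came within 1.5-fold under 2 of 13 alternatives, Mmp16 under 3 of 13 and Adamtsl1 under 1 of 12. Timp2, at 772 and 716 CPM, was within 1.5-fold (log2 ratio -0.11), and so was Adamts16 (-0.12). Astrocyte-like cells had 1 of 24 higher and 2 lower, where 1.4% and 1.24% of all genes were, with medians of -0.01 and 0.01. Adamts16 was higher from 21 to 60 UMIs (2.01 and 4.75 CPM, log2 ratio 1.24). Adamts1 was lower at 30.8 and 20.04 CPM (321 and 253 UMIs, -0.62) and came within 1.5-fold under 8 of 13 alternatives. The third called gene, Adamtsl3, was lower with an interval that included 0. Timp4, for which these cells led, had a log2 ratio of 0.09 (0.02 to 0.16).

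Among the hippocampal neurons, CA1 pyramidal-like cells stood on one side, with 6 of 18 tested genes past 1.5-fold higher and 0 lower, where 5.8% and 0.418% of all genes were. The median log2 ratio was 0.31, against 0.07 for all genes. The 6 were Adamts20 (21.2 and 34.3 CPM, log2 ratio 0.70), Adamts10 (0.62), Adamtsl1 (12.2 and 20.1 CPM, 0.72), Adamts9, Adamts16 and Mmp15, the last 3 at no more than 3.13 CPM in either library. Adamts16 and Adamtsl1 stayed past 1.5-fold in the 12 alternatives run for each, whereas Mmp15 came within it under 5, Adamts10 under 2 and Adamts9 and Adamts20 under 1 each. Astrocyte markers summed to 565 and 756 CPM in these cells, with 21 of 22 higher, and 16 of 20 microglia markers were higher (165 and 191 CPM). The oligodendrocyte sum was 856 and 857 CPM, and the choroid plexus (454 and 226 CPM) and fibroblast sums (166 and 121 CPM) were lower. Median depth differed, at 27885 UMIs per cell in control and 18140 in tomatidine, and the part of depth and of these other transcripts in the ratios was not tested.

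CA3 pyramidal-like cells had 2 of 19 tested genes higher and 3 lower, where 3.3% and 0.82% of all genes were, and the median log2 ratio was 0.09 against 0.04. Adamts1, which cuts lecticans, was lower at 31.9 and 15.7 CPM (237 and 103 UMIs, log2 ratio -1.03, interval -1.37 to -0.69). It was lower in dentate granule-like cells too, at 24.7 and 17.6 CPM (1112 and 590 UMIs, -0.48), and over the classes tested its ratio was below 0 in 9 of 12. Adamts8 (14.5 and 9.43 CPM) and Mmp14 (9.02 and 5.17 CPM) were the other lower genes, and Adamtsl1 (6.999 and 16.9 CPM, 1.27) and Adamts10 the higher ones. Without a cell filter the Adamts1 ratio in CA3 pyramidal-like cells was -0.41, within 1.5-fold, and with the stricter cell filter it was -0.23.

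In dentate granule-like cells, the largest neuronal class with 2482 and 1959 cells, 1 of 29 tested genes was higher and 1 lower, where 1.77% and 0.551% of all genes were, and the median log2 ratio was 0.11 against 0.03. The higher gene, Mmp11, had an interval that included 0, and the lower one was Adamtsl2. The 4 genes for which these cells led had log2 ratios of 0.10 (Mmp24), 0.19 (Adamts3), 0.21 (Adamts17) and 0.27 (Adamts20). Mmp17, with 17778 and 12784 UMIs the best counted protease here, had -0.05 (-0.08 to -0.01). Deep-layer excitatory-like cells had 2 of 22 higher and 1 lower, where 3.2% and 0.951% of all genes were, with medians of 0.24 and 0.03. Timp3 was higher at 6.71 and 14.4 CPM (104 and 198 UMIs, log2 ratio 1.10), Timp4 at 5.36 and 9.13 CPM, and Adamtsl2 was lower as given above. Markers of the classes that lead for these inhibitors were higher in the same cells: 21 of 22 astrocyte markers (1779 and 2051 CPM in sum, Aqp4 7.81 and 16.6 CPM), 22 of 23 endothelial, 17 of 20 mural and 16 of 20 fibroblast markers. Their part was not tested. Timp4 came within 1.5-fold under 3 of 11 alternatives. Interneuron-like cells had 0 of 26 higher and 2 lower, where 2.61% and 0.825% of all genes were, with medians of 0.13 and 0.04. The lower genes were Adamts18 (3.81 and 2.21 CPM) and Mmp28 (4.04 and 2.30 CPM), and the Adamts18 ratio turned to 1.22 under the stricter cell filter.

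Subcortical neuron-like cells show how the mix of clusters enters a class sum. In the whole class Timp3 measured 131 CPM in control and 49.7 CPM in tomatidine, and Adamts19 measured 29.5 and 17.9 CPM. The class joins cluster 11, with 181 control and 670 tomatidine cells, and cluster 21, with 278 and 230. Within cluster 21 Adamts19 was 39.6 and 43.4 CPM and within cluster 11 it was 7.87 and 8.29 CPM, so that its ratio was slightly above 0 inside each cluster and below 0 in their sum. Adamts15 behaved alike, at 46.4 and 30.7 CPM in the class but 62.9 and 71.7 CPM in cluster 21 and 10.9 and 15.3 CPM in cluster 11. Timp3 remained lower in both, at 178 and 127 CPM in cluster 21 and 29.9 and 20.7 CPM in cluster 11. Timp4 was higher in both, at 7.33 and 15.4 CPM in cluster 11 (log2 ratio 1.07) and 7.68 and 11.2 CPM in cluster 21 (0.55). The sum of fibroblast markers was lower in both clusters, at 622 and 366 CPM in cluster 11 and 470 and 336 CPM in cluster 21, and Aqp4, an astrocyte marker, was higher in both, at 13.2 and 20.2 CPM and at 11.1 and 18.2 CPM. Their part in the Timp3 and Timp4 values was not tested.

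**Figure D5:**
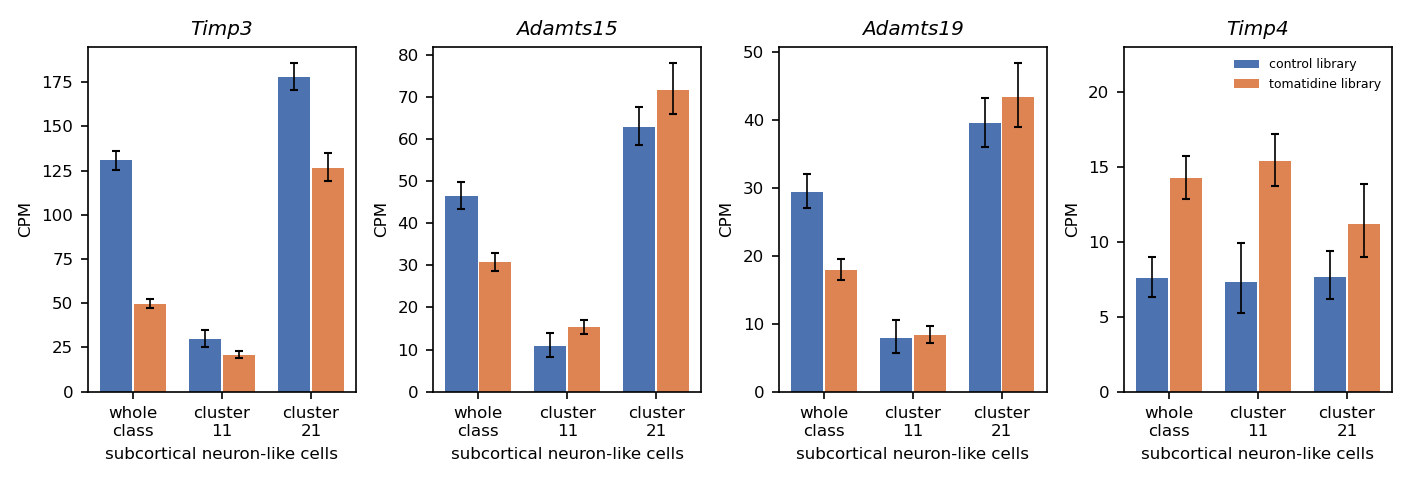
CPM of Timp3, Adamts15, Adamts19 and Timp4 in subcortical neuron-like cells, for the whole class and for its clusters 11 and 21, with 1 bar per library and error bars for the Poisson interval. Adamts19 is lower with tomatidine in the whole class (29.5 and 17.9 CPM), while its error bars overlap within cluster 11 (7.87 and 8.29 CPM) and cluster 21 (39.6 and 43.4 CPM).

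The inhibitors can also be read across classes. Timp3 had a ratio above 0 in 10 of 13 classes, Timp4 in 10 of 12 and Timp2 in 8 of 13. Timp2 stayed within 1.5-fold throughout, between -0.12 and 0.54 on the log2 scale. The calls for Timp3 were in border macrophage-like and deep-layer excitatory-like cells, both of them classes in which it was low, and those for Timp4 were higher in fibroblast-like and deep-layer excitatory-like cells and lower in endothelial-like cells.

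Substrates and partners were taken from 4 further lists. Among the proteoglycans and perineuronal net parts, 13 of 13 tested genes in astrocyte-like and 14 of 14 in dentate granule-like cells were within 1.5-fold. Of all genes, 1.4% were past it higher and 1.24% lower in astrocyte-like cells. In dentate granule-like cells 1.77% and 0.551% were, so both counts are near the share of all genes. In OPC-like cells Tnc, the matrix glycoprotein tenascin-C, was higher at 21.9 and 54.6 CPM. Hapln2, a link protein that is also an oligodendrocyte marker, was lower there at 136 and 81.5 CPM. The other 12 of 14 were within the fold, where 2.66% of all genes were higher and 3.31% lower. Bcan (brevican, a substrate of Adamts4) was lower in endothelial-like cells at 457 and 237 CPM. It was higher in border macrophage-like cells at 34.7 and 184 CPM, where Tnr, Cspg5 and Ptprz1 were higher as well, 4 of 4 tested beside 8.71% of all genes. These 4 are neural genes, and astrocyte markers were higher in the same cells, as given above. Their part was not tested.

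The listed membrane proteins of the ADAM family, which include sheddases, were within 1.5-fold in 11 of the 13 classes for each tested gene. In those 11 classes at most 5.8% of all genes were past 1.5-fold higher and at most 4.27% lower. One exception was Adam17 in mural-like cells, 1 of 7 tested, which was higher with an interval that included 0, where 8.02% of all genes were higher. In border macrophage-like cells Adam10 was lower (188 and 122 CPM) and Adam11, Adam22 and Adam33 were higher. These were 1 and 3 of 10 tested genes, beside 6.44% and 8.71% of all genes. Astrocyte markers were higher in the same cells, and their part was not tested. Among activators and inhibitors, A2m, the broad protease trap alpha-2-macroglobulin, was lower in endothelial-like cells at 25.3 and 6.82 CPM, and Spock1, a brain proteoglycan, was higher in CA1 pyramidal-like cells at 26.4 and 44.5 CPM. In fibroblast-like cells 15 of 15 tested genes of that list were within 1.5-fold, where 3.12% of all genes were past it higher and 3.96% lower.

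The fibrillin list, which holds partners of ADAMTS-like proteins and of Adamts10, had 4 of 8 tested genes higher in CA1 pyramidal-like cells and 0 lower, beside 5.8% and 0.418% of all genes, with a median log2 ratio of 0.60 against 0.07 for all genes. Fbn1 was 22.9 and 37.8 CPM, Fbn2 8.93 and 14.8 CPM, Ltbp3 1.89 and 5.001 CPM and Efemp1 1.95 and 3.44 CPM. CA1 pyramidal-like cells were not alone in this. The list had 3 of 6 genes higher in endothelial-like cells (median 0.51) and 3 of 8 in mural-like cells (0.54). In deep-layer excitatory-like cells 3 of 10 were higher (0.39) and in dentate granule-like cells 3 of 9 (0.35). All genes had 4.01%, 8.02%, 3.2% and 1.77% higher in these classes. The median was near 0 in fibroblast-like (-0.04), astrocyte-like (0.01) and CA3 pyramidal-like cells (-0.03). In fibroblast-like cells, where Adamtsl2 was lower, 11 of 12 tested genes of the list were within 1.5-fold, and Thbs1 (thrombospondin-1) was lower at 275 and 140 CPM. Of all genes in fibroblast-like cells, 3.12% were past 1.5-fold higher and 3.96% lower. In mural-like cells Thbs1 was higher, from 4 to 88 UMIs (6.48 and 79.2 CPM), and Fbln5, an elastic fibre protein, was higher in mural-like (42.1 and 93.6 CPM) and endothelial-like cells (11.7 and 31.2 CPM).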

How the data were processed

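Per the file headers and labels, the deposited files hold raw UMI counts per gene and cell, which the authors made with Cell Ranger (8.0.0 in the submitters' processing notes, 7.1.0 in the file headers) on mm10 from 1 probe-based library per group, filtered to cells. Each library pooled 4 mice. Cells with at least 500 UMIs, over 250 genes, log10 genes per UMI above 0.8 and under 20% mitochondrial UMIs were kept. Scrublet (scanpy 1.11.5) called 0 and 2 doublets, so the 2% of cells with the highest score were removed instead (308 and 295). Cells were integrated and clustered with Seurat 5.3.0 (2000 variable genes, 30 components, Louvain resolution 0.8), with the protease and inhibitor genes left out of the variable genes. Clusters were named from fixed markers, except that a planned Cajal-Retzius neuron list was dropped after the clusters it led had been seen. Clusters named endothelial were split again, and their parts were named by a looser rule from the endothelial and mural lists alone. The mural-like cells came from that second split.

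Counts were summed per library and class, with exact Poisson intervals, conditional binomial intervals for ratios and Clopper-Pearson intervals for shares. With 1 library per group no test is possible. UMI totals of 279525565 and 259059908 set the counting precision. The self-written steps were tested on simulated data. Positions are from GENCODE (GRCm38) and promoter windows from RefSeq (GRCm38.p6).

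Members and lists were chosen with earlier results of these data known. Values are given for the inhibitors, for the 8 Mmp, 12 Adamts and 4 Adamtsl genes with the most UMIs, for any member past 1.5-fold with 50 or more UMIs and an interval that leaves out 0, and for examples of the related lists past the same limits. Other genes named with values were chosen after their values were seen. Alternatives covered cell filters, doublets, integration, resolution, class definition, scaling (TMM factors, edgeR 4.0.16), free RNA, UMI minimums and the fold.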

Additional observations from a re-analysis of the deposited data

How the results depend on the processing

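The direction of the called pairs depended on class definition and cell filter more than on TMM scaling. Many calls also depended on how cells were weighted. With the mean over cells of the per-cell CPM, 27 of 260 pairs were higher and 18 lower. Of 42 named pairs, 9 stayed past 1.5-fold in every alternative run for them, 27 came within it in at least 1, and 6 changed sign in at least 1. The 9 were Adamts10 and Adamts4 in mural-like, Adamtsl2 in fibroblast-like, Mmp9 and Timp3 in border macrophage-like, Adamts16 in astrocyte-like and CA1 pyramidal-like, Adamtsl1 in CA1 pyramidal-like and Timp3 in deep-layer excitatory-like cells. For Adamts4 in mural-like cells this leaves out the oligodendrocyte RNA subtraction, under which no ratio could be formed. Under a marker gate per cell, 15 pairs were higher and 13 lower, and the log2 ratio turned to 0.10 for Mmp14 and 0.34 for Mmp17 in endothelial-like, 0.062 for Adamts4 and 0.63 for Adamtsl1 in OPC-like, and -0.60 for Mmp2 in oligodendrocyte-like cells. At resolution 1.5 it was 0.011 for Mmp17 in endothelial-like and 0.25 for Adamtsl1 in OPC-like cells. With the stricter filter (under 6000 genes and 10% mitochondrial UMIs) it was 0.13 for Mmp14 in endothelial-like and 1.22 for Adamts18 in interneuron-like cells, and with the mean per-cell CPM it was 0.33 for Adamts18. The cause was not tested. The mean per-cell CPM brought Mmp14 and Timp4 in endothelial-like, Adamtsl1, Adamtsl4 and Mmp11 in OPC-like, and Adamts10 and Mmp2 in oligodendrocyte-like cells within 1.5-fold. The same held for Adamts3 and Mmp16 in microglia-like, Mmp17 in fibroblast-like, Mmp12 in border macrophage-like and Adamts1 in astrocyte-like cells. Among neurons it held for Adamtsl2 and Timp4 in deep-layer excitatory-like, Adamtsl2 in dentate granule-like, Mmp15 in CA1 pyramidal-like and Mmp14 in CA3 pyramidal-like cells. Without a cell filter 28 pairs were higher and 12 lower, of 269. A minimum of 20 UMIs gave 43 higher and 39 lower pairs, one of 100 UMIs gave 13 and 14, and a limit of 2-fold gave 6 and 6. Between 28 and 32 genes had the same leading class in both libraries. That class was not always the one named above. Of 39 genes, 24 kept the leads of the main setting under the marker gate and 27 under the stricter filter. Without a cell filter and at resolution 1.5, 33 kept them. Under the stricter filter the shared lead changed for Adamts3, Adamts17, Adamts20, Mmp24, Mmp12 and Timp2. Border macrophage-like cells formed no class without a cell filter or at resolution 0.3, deep-layer excitatory-like cells none under the stricter filter, and the hippocampal neuron classes none under the gate. The oligodendrocyte RNA subtraction and the removal of the highest cell were chosen after seeing the data. No paired analysis was possible because each group has 1 library and no replicate number. Depth limits the border macrophage-like and mural-like values most, where 7 and 11 genes reached 50 UMIs.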

Other observations

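Some of the highest levels of these genes were in clusters left unnamed by the naming rules. Adamts3 measured 221 CPM (370 UMIs) in 85 cells of cluster 33 in the control library, above the 83.5 CPM of dentate granule-like cells. In tomatidine that cluster held 2 cells and 20 UMIs of Adamts3 (644 CPM). Adamts20 measured 83.8 CPM in control and 90.7 CPM in tomatidine in cluster 26, and Adamts9 measured 43.3 and 63.0 CPM there. Astrocyte markers summed to 33482 and 44343 CPM in cluster 26, above the 27999 and 27576 CPM of astrocyte-like cells, and oligodendrocyte markers to 17837 and 12154 CPM. Mmp12 measured 34.9 CPM (40 UMIs) and 108 CPM (84 UMIs) in cluster 29, which held 123 and 93 cells. Microglia markers summed to 17584 and 21789 CPM in cluster 29, beside oligodendrocyte markers at 56178 and 47226 CPM. Adamts16 measured 28.4 and 16.5 CPM in cluster 31.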
